A study of Mus musculus with 80 samples.

Results

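The comparison described here is the knockout of the type I interferon receptor (labelled Ifnar) in hematopoietic progenitor cells (HPC) of mice that carry Flt3 ITD. Its members were chosen by the titles of the libraries: 5 RNA-seq libraries titled Ifnar -/-, Flt3 ITD/+ and 4 titled Ifnar +/-, Flt3 ITD/+, which are 9 of the 80 libraries in the study. The study sequenced RNA of mouse hematopoietic stem cells (HSC) and HPC at several ages and genotypes on the B6 background. Both groups were taken at postnatal day 14 (P14). Both carried 1 Flt3 ITD allele and 1 wild-type Flt3 allele, and the controls were themselves heterozygous for the Ifnar knockout, so no library here had 2 intact Ifnar copies. The closest other comparison was the same knockout in HPC with wild-type Flt3 at the same age, with 4 libraries labelled Ifnar -/-, Flt3 +/+ and 4 labelled Ifnar +/-, Flt3 +/+. These 8 libraries entered the same fit. The labels name no treatment, no Ifnar allele or deleted exon, no organ and no sort markers, and they do not say whether animals were pooled or littermates were used. The p-values therefore measure the spread between these libraries, which may be technical.

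Type I interferons signal through a receptor made of the IFNAR1 and IFNAR2 chains, which activate the kinases JAK1 and TYK2. These phosphorylate STAT proteins, which join IRF9 and bind interferon-stimulated response elements in the promoters of antiviral genes, antigen presentation genes and the pathway's own factors. FLT3 is a receptor tyrosine kinase of early multipotent and lymphoid-primed progenitors, and its internal tandem duplication (ITD), a mutation of acute myeloid leukemia, makes it signal without ligand.

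The labels write Ifnar without a subunit number, so the genes of both receptor chains were examined. Ifnar1 was read at 55.6, 55.9, 47.6 and 48.9 CPM (reads scaled to a common library size) in the 4 heterozygous libraries. In the 5 knockout libraries it was read at 46.4, 53.7, 51.0, 50.9 and 43.5 CPM. The groups overlapped, and the log2 fold change of -0.08 ± 0.19 (SE; knockout against heterozygote here and below) had an adjusted p of 0.853 with edgeR's quasi-likelihood test. Counts over a whole gene do not check a deletion of part of it, and the label could not be checked from the receptor gene itself. Ifnar2 lay between 30 and 37.8 CPM in the heterozygotes and between 13.5 and 33.2 CPM in the knockouts (log2 fold change -0.78 ± 0.32, adjusted p = 0.191 with edgeR). Flt3 itself was at 456 to 528 CPM in the heterozygotes and spread widely in the knockouts, with 124, 351, 430, 315 and 128 CPM (log2 fold change -0.87 ± 0.58, adjusted p = 0.44 with edgeR).

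The 9 libraries held from 58.4 M to 69.5 M counted reads each. Knockout libraries 4 and 5 stood apart from the other 3 knockouts on the first principal component of the 17 P14 libraries, which held 19.2% of the variance. Marker lists of other cells moved with them. The summed level of 7 endothelial markers, given as their mean log2 CPM, was 5.20 and 5.42 in these 2 libraries, 2.09 to 3.17 in the other knockouts and 1.07 to 3.83 in the heterozygotes. The level of 7 stroma markers was 1.22 and 2.48 in these 2 libraries, -1.73 to -0.99 in the other knockouts and -2.21 to 0.43 in the heterozygotes. Heterozygous library 2 was the highest of its group in both lists. Cdh5, which encodes the cadherin of endothelial junctions, was at 25.1 and 39.2 CPM in knockout libraries 4 and 5 and at 0.42 to 8.34 CPM elsewhere, and the stroma marker Dcn had 0 reads in 7 of the 9 libraries. Of the 7 endothelial markers 1 was called and of the 7 stroma markers 0. The part of these cells in the results was not tested, and the lists that lost calls without the 2 libraries are given with their counts below. Y-linked transcripts were read in 2 of the 4 heterozygous and 4 of the 5 knockout libraries, so the sexes were not balanced. The HPC markers Kit, Cd34 and Cd48 were read in these libraries, and none of the 3 passed the test between the groups. In a list of 10 HPC surface markers 4 were called lower, among them Ly6a, beside 1.93% of all genes tested. Of these 10, 9 had a negative log2 fold change, and the median was -1.14.

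**Figure D1:**
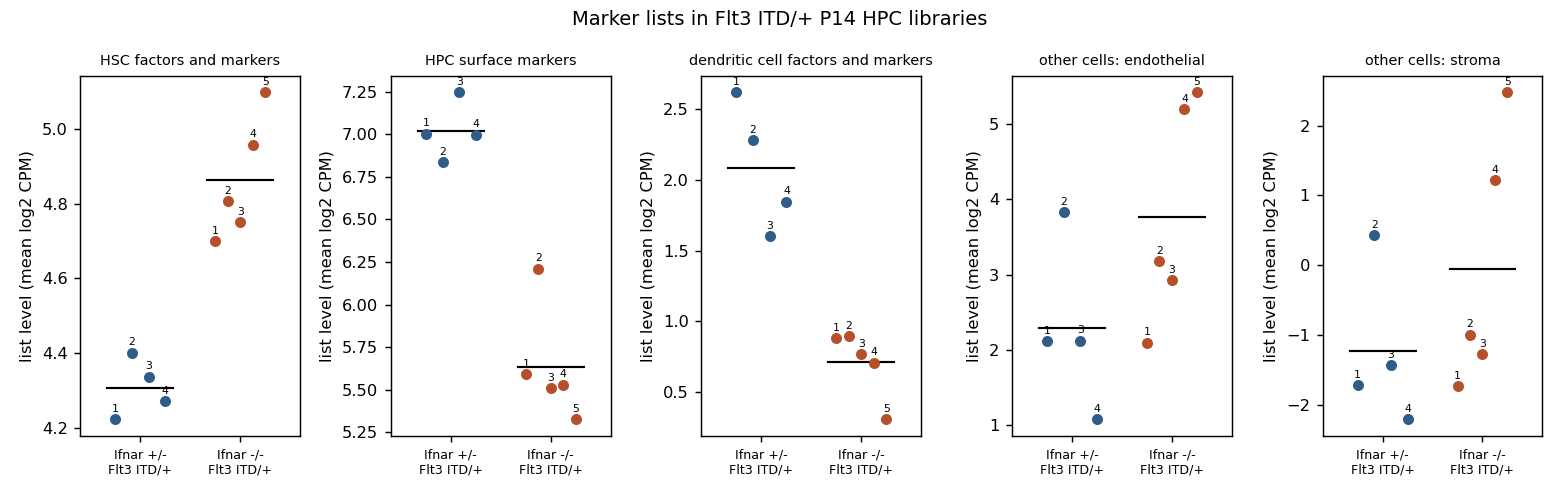
Levels of 5 marker lists in the 9 Flt3 ITD/+ libraries, as the mean log2 CPM over the list (vertical axis) by labelled genotype (horizontal axis). Each point is 1 library with its replicate number, and bars are group means. Knockout libraries 4 and 5 are highest in the endothelial and stroma lists, while the HSC, HPC surface and dendritic lists separate the 2 genotypes in each library.

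In the Ifnar knockout, RNA of interferon-induced antiviral genes, antigen presentation genes and several lymphoid and dendritic cell genes was lower in Flt3 ITD HPC. RNA of a set of HSC genes was higher. Most of the lymphoid and HSC calls were lost without knockout libraries 4 and 5, as given below. Of 17464 genes tested, 710 passed an adjusted p of 0.05 with edgeR (4.07%), 373 of them higher (2.14%) and 337 lower (1.93%) in the knockout. The interferon response stood at the lower end. Of 125 genes in 10 lists of interferon-induced genes, 122 were in the table and 119 passed the filter on low counts. Of these, 82 were called lower and 0 higher. Their median log2 fold change was -1.44, beside 0.02 for all genes tested, and 112 of the 119 were negative. In 91 of the 119 the highest knockout library lay under the lowest heterozygous one, which held for 7% of all genes tested. In 1 member the lowest knockout lay above the highest heterozygote, which held for 6.23% of all genes. Without knockout libraries 4 and 5 the total fell to 193 genes, with 51 higher and 142 lower, and 61 interferon-list members were still lower. Of the 373 genes called higher 50 were still called there (13.4%), and of the 337 called lower 140 were (41.5%). Single libraries also moved the total: it was 327 without heterozygous library 1, 333 without heterozygous library 3, 400 without knockout library 4 and 362 without knockout library 5.

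**Figure D2:**
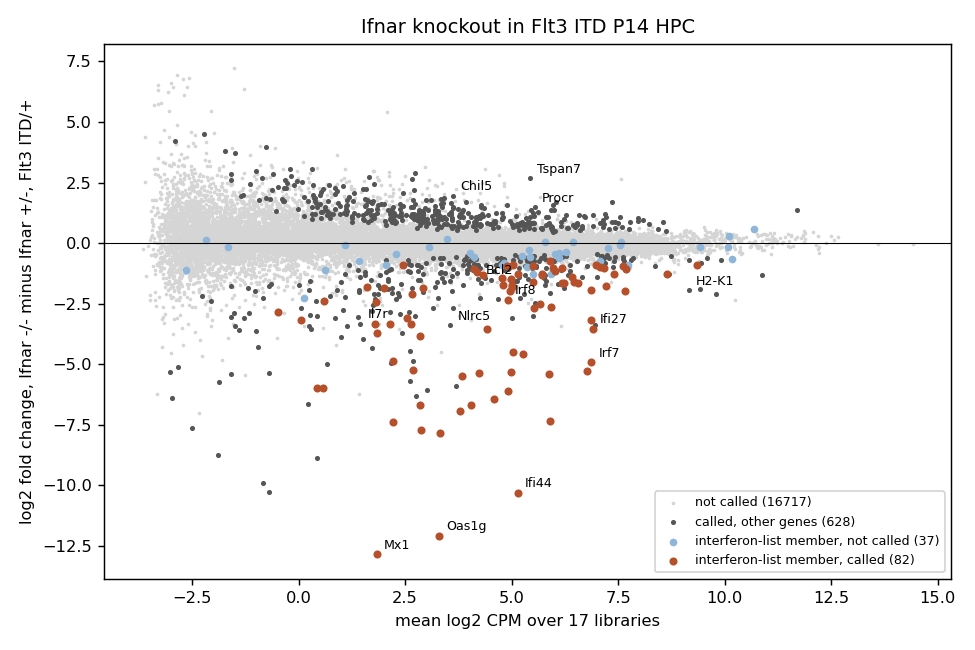
Log2 fold change of the knockout in Flt3 ITD/+ HPC (vertical axis) against the mean log2 CPM over 17 libraries (horizontal axis), 1 point per gene tested. Coloured points are members of the 10 interferon-induced lists: 82 called lower, all under 0, and 37 not called. The fitted values of genes without reads in the knockouts, such as Mx1, depend on the prior count.

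The summed level of the 10 interferon lists separated the groups in each library. It was 4.78, 5.4, 6.04 and 5.80 log2 CPM in heterozygous libraries 1 to 4 and 3.21, 3.26, 2.96, 3.15 and 3.30 in knockout libraries 1 to 5. The heterozygotes spread over more than 1 log2 unit, with library 1 lowest and library 3 highest, while the knockouts lay close together. In HPC with wild-type Flt3 the mean level was 4.43 in the heterozygotes and 3.36 in the knockouts, beside 5.50 and 3.18 with Flt3 ITD.

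**Figure D3:**
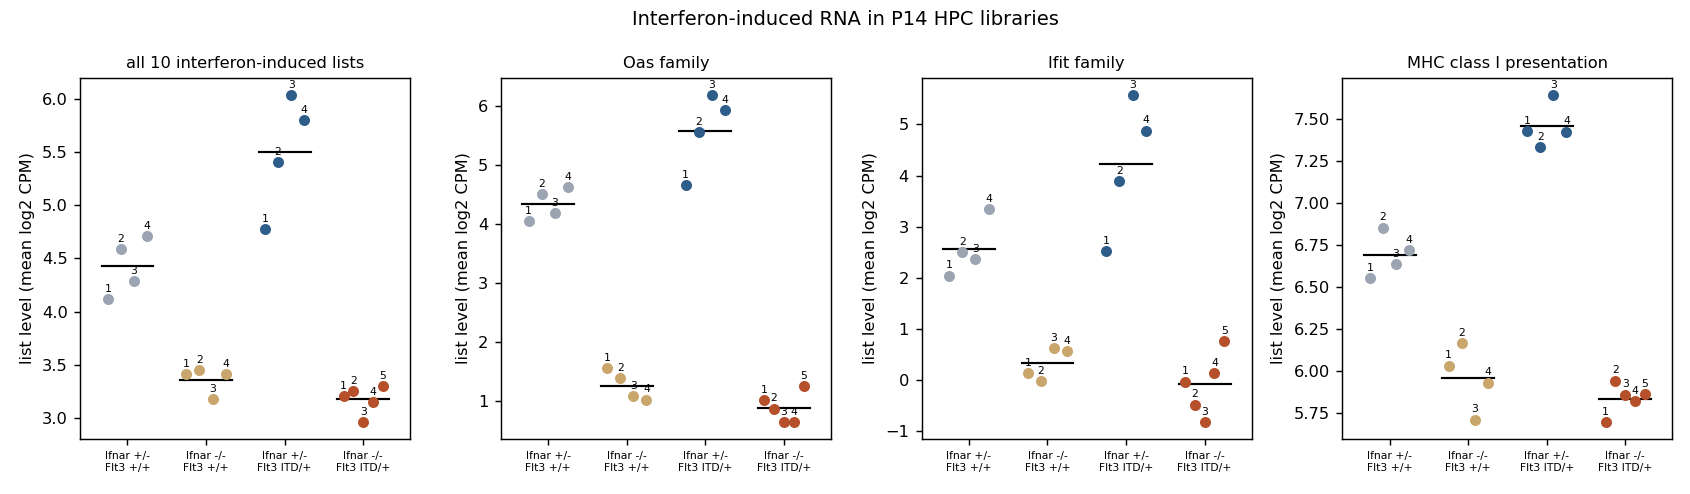
Levels of all 10 interferon-induced lists together, of the Oas and Ifit families and of MHC class I presentation in the 17 P14 HPC libraries, as mean log2 CPM (vertical axis) by labelled genotype (horizontal axis). Each numbered point is 1 library and bars are group means. The group mean is highest in the heterozygous Flt3 ITD/+ libraries in each panel, and in both Flt3 genotypes each knockout library lies under each heterozygous one.

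Among the signalling genes and transcription factors of the pathway, 3 of 11 fell. Irf7, the factor that amplifies interferon production, was read at 123, 279, 644 and 484 CPM in the heterozygotes. It was at 11.1, 12, 12.2, 11.1 and 16.7 CPM in the knockouts, a log2 fold change of -4.92 ± 0.36 (adjusted p = 2.23e-07 with edgeR). Each knockout library was far under each heterozygous one, and the heterozygotes kept the order of their interferon level. Irf9, the DNA-binding partner of the STAT proteins, went from 116, 205, 243 and 231 CPM to 47.5 to 60.2 CPM (log2 fold change -1.95 ± 0.23, adjusted p = 3.11e-05 with edgeR). The kinases Jak1 (-0.07) and Tyk2 (-0.54), and Stat2 (-0.91), did not pass the test.

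Several antiviral effectors had 0 reads or close to it in the knockouts. Mx1, an interferon-inducible GTPase gene, had 3313 reads over the 4 heterozygotes, at 6.50, 18.4, 15.6 and 12.1 CPM. It had 0 reads in each of the 5 knockout libraries, so that it was at least 1440-fold lower against a floor of 3 counts over the group. Oas1g, an oligoadenylate synthetase of the antiviral defence, had 8320 reads in the heterozygotes and 2 in the knockouts, a 5430-fold difference with a 95% counting interval of 1500 to 44800. These intervals cover counting error only.

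The Oas list as a whole had 7 of 9 members lower and a median log2 fold change of -5.32. Oas1a stood at 63.9, 133, 259 and 220 CPM in the heterozygotes and at 0.19 to 1.65 CPM in the knockouts (log2 fold change -7.35 ± 0.58, adjusted p = 1.2e-06 with edgeR). Oas1a and Oas1g are close relatives, so reads may be split between them.

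Of the Ifit family, which binds viral RNA, 6 of 6 members fell with a median of -4.72. Ifit1 was at 17.5, 59.8, 171 and 110 CPM in the heterozygotes and at 0.82 to 1.66 CPM in the knockouts (log2 fold change -6.12 ± 0.52, adjusted p = 1.88e-06 with edgeR). Heterozygous library 1 was again the lowest of the 4. Ifit3 and Ifit3b, near-identical genes, had log2 fold changes of -6.69 and -6.67.

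In the ubiquitin-like Isg15 system 5 of 6 genes fell. Isg15 itself was at 18.9, 66.5, 168 and 122 CPM in the heterozygotes and at 4.60, 3.48, 2.40, 4.50 and 5.69 CPM in the knockouts (log2 fold change -4.50 ± 0.47, adjusted p = 1.64e-05 with edgeR). Usp18, which removes Isg15 and also blocks the receptor, went from 48.9, 132, 311 and 226 CPM to 3.14 to 5.91 CPM (log2 fold change -5.4 ± 0.43, adjusted p = 8.28e-07 with edgeR). The ligase gene Herc6 fell by 1.44 on the log2 scale. Leaving out knockout libraries 4 and 5, 3 of the 6 genes were called.

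Of 16 interferon-inducible GTPases tested, 12 were lower. Besides Mx1 and Mx2 (-7.39), they included Tgtp1 (-2.63), Gvin1 (-2.45) and Iigp1 (-4.56), members of families that attack the vacuoles of intracellular parasites. Gbp2, at -0.44, did not pass. With knockout libraries 4 and 5 left out, 10 of the 16 were lower.

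Among sensors of foreign nucleic acid 5 of 11 fell: Dhx58 (-2.52), Zbp1 (-5.24), Eif2ak2 (-1.03), Tlr7 (-1.84) and Ifih1 (-1.48). Dhx58 and Zbp1 were still called without knockout libraries 4 and 5 and the other 3 were not (Eif2ak2 adjusted p = 0.0879 and Tlr7 adjusted p = 0.0742 with edgeR). Ddx58, which encodes RIG-I, was at -1.29 without passing, and Tmem173, which encodes STING, was at 0.05.

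The Ifi200 family of DNA-binding proteins had 9 of 9 tested members lower, with a median of -5.47. Ifi206 went from 16.2, 33.8, 76.1 and 55 CPM to 0.26 to 0.50 CPM (log2 fold change -6.94 ± 0.56, adjusted p = 8.34e-07 with edgeR). No knockout library came near the lowest heterozygote.

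The remaining effector list held 41 tested genes, of which 31 were lower. Ifi27, a mitochondrial protein gene, was at 144, 275, 230 and 287 CPM in the heterozygotes and at 17.7 to 25.3 CPM in the knockouts (log2 fold change -3.53 ± 0.24, adjusted p = 7.2e-08 with edgeR). Rtp4 went from 82.8, 219, 362 and 333 CPM to 4.24 to 7.98 CPM (log2 fold change -5.29 ± 0.38, adjusted p = 1.74e-07 with edgeR). Ifi44 went from 32.9, 93.5, 200 and 185 CPM to at most 0.22 CPM, with 0 reads in knockout libraries 4 and 5 (log2 fold change -10.30 ± 0.91, adjusted p = 5.24e-06 with edgeR). Bst2, the tetherin that holds budding virions, kept more of its RNA, at 81.3 to 183 CPM against 42.6 to 45.4 CPM (log2 fold change -1.64 ± 0.20). The Ifitm list moved least, with Ifitm3 (-0.91) and Ifitm6 (-2.37) lower and Ifitm1 (0.57) and Ifitm2 (0.29) not passing. Without knockout libraries 4 and 5 none of the 4 was called (Ifitm3 adjusted p = 0.122 and Ifitm6 adjusted p = 0.0656 with edgeR), and 22 of the 41 other effectors were lower. Interferon genes themselves were hardly read: of 10 ligand genes none passed the filter, and the most reads any of them had in a library was 11.

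The promoters of the genes that fell carried the interferon response element core more often than other promoters. RefSeq promoters (GRCm38.p6, from 250 bases before to 50 after the start) were matched by symbol for 11492 of the 17464 genes tested, and the core was searched as GAAANNGAAA on both strands, with overlapping matches counted. It stood in 66 of 260 genes called lower (25.4%, Wilson 95% interval 20.5 to 31.0) and in 11 of 282 called higher (3.9%, 2.19 to 6.85), beside 3.95% of genes tested and 3.99% of all promoters in the table. With the interferon lists left out it stood in 31 of 197 genes called lower (15.7%, 11.3 to 21.5). Of interferon-list members it stood in 35 of 63 called lower (55.6%) and in 13 of 31 not called (41.9%). A match describes the letters only and is not a bound site. The stretches below belong to 6 genes described above or in this list, are printed 5′ to 3′ on the gene's strand, and have the core in capitals.
Isg15, chr4:156200845-156200914, minus strand: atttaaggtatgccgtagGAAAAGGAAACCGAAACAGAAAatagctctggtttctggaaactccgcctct
Ifit1, chr19:34640774-34640843, plus strand: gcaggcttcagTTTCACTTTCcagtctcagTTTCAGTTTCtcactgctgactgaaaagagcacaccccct
Oas1g, chr5:120887614-120887655, minus strand: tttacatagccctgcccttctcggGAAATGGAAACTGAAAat
Ifi206, chr1:173491319-173491388, minus strand: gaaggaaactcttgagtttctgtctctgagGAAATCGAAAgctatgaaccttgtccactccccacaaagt
Tgtp1, chr11:48992284-48992353, minus strand: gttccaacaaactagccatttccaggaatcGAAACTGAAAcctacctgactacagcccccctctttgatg
Bst2, chr8:71537557-71537626, minus strand: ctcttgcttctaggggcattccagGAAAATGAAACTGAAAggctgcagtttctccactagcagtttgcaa

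In Isg15 3 overlapping cores form a single run, and the one nearest the start begins 66 bases before it. In Ifit1 2 separate cores lie on the opposite strand and therefore read as TTTC pairs, and Ifit1bl2, which starts on the other strand from overlapping sequence, also fell (-2.84). Among other named genes that were lower, the windows of Irf8, Bcl2, Il7r, H2-K1, Tap1 and Irf7 did not hold these letters. The core was present in the windows of Ebf1 and Igf2bp3, which are no members of the interferon lists and were also lower.

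Antigen presentation by MHC class I fell with the interferon genes, with 11 of 19 genes lower, none higher and a median log2 fold change of -0.96. H2-K1, a classical class I heavy chain, was at 1221, 1150, 1096 and 937 CPM in the heterozygotes and at 307, 342, 295, 228 and 254 CPM in the knockouts (log2 fold change -1.95 ± 0.18, adjusted p = 2.17e-06 with edgeR). The groups were well apart, and the heterozygotes did not follow the order of their interferon level, since library 1 was highest. Tap1, a subunit of the peptide transporter, went from 138, 138, 178 and 142 CPM to 32.9 to 47.4 CPM (log2 fold change -1.87 ± 0.18, adjusted p = 3e-06 with edgeR). B2m, the light chain, was also lower (-1.30). The largest changes were those of H2-Q6 (-6.07) and H2-Q7 (-5.71), whose reads may be split between near-identical H2 genes.

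Nlrc5, the transactivator of class I genes, fell among them. It was at 30.3, 32.8, 35.3 and 22.9 CPM in the heterozygotes and at 3.87, 3.58, 2.54, 2.67 and 1.86 CPM in the knockouts (log2 fold change -3.38 ± 0.36, adjusted p = 1.09e-05 with edgeR). Of 9 class II presentation genes H2-Ab1 (-1.64), H2-Eb1 (-2.99) and H2-Aa (-2.26) were lower and H2-Oa (0.82) was higher. Heterozygous library 1 was highest in these 3, with H2-Aa at 108 CPM against 24.8 to 32.7 CPM in the other heterozygotes and 7.76 to 12.3 CPM in the knockouts. Ciita, the class II transactivator, was at -0.68 and did not pass. Without knockout libraries 4 and 5 9 class I genes were lower, H2-Ab1, H2-Eb1 and H2-Aa were still lower, and H2-Oa was lost (adjusted p = 0.357 with edgeR).

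Lineage genes fell too, among them Irf8. Irf8 encodes a transcription factor needed for dendritic cells and monocytes and was read at 119, 70.6, 87.2 and 73.3 CPM in the heterozygotes. The knockouts had 10.7, 24.4, 20.2, 19.3 and 13.2 CPM, with no overlap (log2 fold change -2.32 ± 0.26, adjusted p = 1.89e-05 with edgeR). Of 13 dendritic cell genes tested 9 had a negative log2 fold change, and the values ran from -6.24 to 1.16. Of the 13, 4 were called lower, beside 1.93% of all genes tested. They were Irf8, Bst2, Cox6a2 (-1.90), a marker of plasmacytoid dendritic cells, and Xcr1 (-3.42), a receptor of the type that cross-presents antigen. Bst2 was described above with the interferon effectors, and Irf8 is counted again with the myeloid genes below. The call of Xcr1 was lost in 13 of 19 other settings, among them without knockout libraries 4 and 5 (adjusted p = 0.129 with edgeR), where the other 3 were still lower. Other markers of those cells were near the limit of detection. Siglech stood at 0.03 to 0.28 CPM in the heterozygotes and 0 CPM in the knockouts, and its adjusted p was 0.0639 with edgeR. The summed level of the list was 1.60 to 2.62 log2 CPM in the heterozygotes and 0.31 to 0.90 in the knockouts. In bulk RNA, fewer cells of a type and less RNA per cell cannot be told apart.

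Surface markers used to divide HPC were lower in 4 of 10 cases, beside 1.93% of all genes tested. Il7r, the interleukin-7 receptor of lymphoid progenitors, was at 3.28, 5.14, 1.98 and 3.97 CPM in the heterozygotes and at 0.39, 0.62, 0.14, 0.32 and 0.33 CPM in the knockouts (log2 fold change -3.33 ± 0.39, adjusted p = 3.28e-05 with edgeR). It was lower in 5 of 5 knockouts than in any heterozygote. Ly6a, which encodes the stem cell antigen Sca-1 and is itself induced by interferon, went from 86.7, 143, 291 and 247 CPM to 62.9 to 86.3 CPM (log2 fold change -1.40 ± 0.28, adjusted p = 0.00588 with edgeR). Csf1r was lower at -1.46, and without knockout libraries 4 and 5 its adjusted p was 0.258 with edgeR.

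Lymphoid genes Rag2 (-1.81), Satb1 (-0.72) and Ebf1 (-2.32) were lower beside Il7r, which made 4 of 13, against 1.93% of all genes tested. Ebf1, a B cell factor, ran from 4.23 to 20.6 CPM in the heterozygotes and from 1.76 to 2.98 CPM in the knockouts. The B cell marker Cd79a moved with it (3.57 to 20.1 CPM against 1.69 to 6.09 CPM), as did the level of the whole B cell list (1.88 to 3.49 against 0.85 to 1.82 log2 CPM, 1 of 6 members called), and its part was not tested. Without knockout libraries 4 and 5 Il7r alone of these 4 kept its call (adjusted p = 0.0015 with edgeR).

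Bcl2, the antiapoptotic gene, was at 41.2, 34.7, 30.2 and 26.3 CPM in the heterozygotes and at 9.33, 15.1, 11.5, 13.3 and 9.70 CPM in the knockouts (log2 fold change -1.49 ± 0.17, adjusted p = 2.47e-05 with edgeR). It stayed called without knockout libraries 4 and 5 (-1.47, adjusted p = 0.000708 with edgeR). Bcl2 belonged to no list and was named by the test of the difference between Flt3 genotypes, given below.

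Of 15 myeloid genes 3 were lower, Irf8, Csf1r and Cebpa (-1.31), beside 1.93% of all genes tested. Of these 3 Irf8 alone was called without knockout libraries 4 and 5 (Cebpa adjusted p = 0.114 with edgeR). Mpo, the granule peroxidase, was at 1255 to 3563 CPM in the heterozygotes and 268 to 738 CPM in the knockouts without passing (log2 fold change -2.36, adjusted p = 0.0796 with edgeR). Mast cell and eosinophil genes were lower in 2 of 10 cases, Cpa3 (-2.67) and Il1rl1 (-2.27), and heterozygous library 1 had the highest level of that list at 3.01 log2 CPM, against -1.17 to -0.06 in the other heterozygotes, and knockout library 5 was at 1.32 against -2.29 to -1.18 in the other knockouts. Its part in these calls was not tested, and without knockout libraries 4 and 5 neither gene was called (Cpa3 adjusted p = 0.194 and Il1rl1 adjusted p = 0.175 with edgeR). Cdkn1a, the p21 cell cycle inhibitor, fell by 1.22 on the log2 scale, and without those 2 libraries its adjusted p was 0.0692 with edgeR.

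HSC genes went the other way. Of 20 HSC factors and markers 7 were higher and 1, Ly6a, was lower, with a median of 0.60. Of all genes tested 2.14% were higher and 1.93% lower. The same knockout with wild-type Flt3 had a similar median of 0.58, with 3 of the 20 higher and 1 lower. Of all genes tested 1.21% were higher and 3.56% lower there. Procr, the endothelial protein C receptor that marks HSC, was at 16.7, 25, 21.8 and 22.6 CPM in the heterozygotes and at 65.9, 53.3, 49.4, 55.4 and 75.7 CPM in the knockouts (log2 fold change 1.48 ± 0.20, adjusted p = 0.000213 with edgeR). Each knockout library was above each heterozygous one, and knockout libraries 1 to 3 lay within the range set by 4 and 5 or close under it. Hlf, a transcription factor of HSC, went from 127, 116, 117 and 136 CPM to 231, 220, 212, 291 and 311 CPM (log2 fold change 1.03 ± 0.18, adjusted p = 0.0028 with edgeR). Fgd5, a marker of HSC, was higher at 1.18 ± 0.21. With wild-type Flt3, Procr stood at 38.4 to 69.1 CPM in the heterozygotes and at 42.2 to 64.2 CPM in the knockouts, so the heterozygous Flt3 ITD libraries were the lowest of the 17. Mecom, a factor that maintains HSC, was at 0.73 and Meis1 at 0.23, and neither passed.

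Part of this list is shared with endothelium, whose markers were highest in knockout libraries 4 and 5. Esam, an adhesion molecule of both HSC and endothelial cells, was at 21.2, 48.3, 34.8 and 22.5 CPM in the heterozygotes and at 62.3, 70.9, 66.2, 134 and 186 CPM in the knockouts (log2 fold change 1.71 ± 0.33, adjusted p = 0.00468 with edgeR). Emcn, which encodes endomucin, was the 1 endothelial marker of 7 that was called (1.35), and the other called HSC genes were Mllt3 (0.69), Fhl1 (1.12) and Pdzk1ip1 (1.12). Without these 2 libraries 2 of the 20 HSC genes were higher, Procr (1.38, adjusted p = 0.00264 with edgeR) and Fgd5 (1.11, adjusted p = 0.0313), while Hlf (0.83, adjusted p = 0.0524) and Esam (1.07, adjusted p = 0.0544) missed the threshold.

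**Figure D4:**
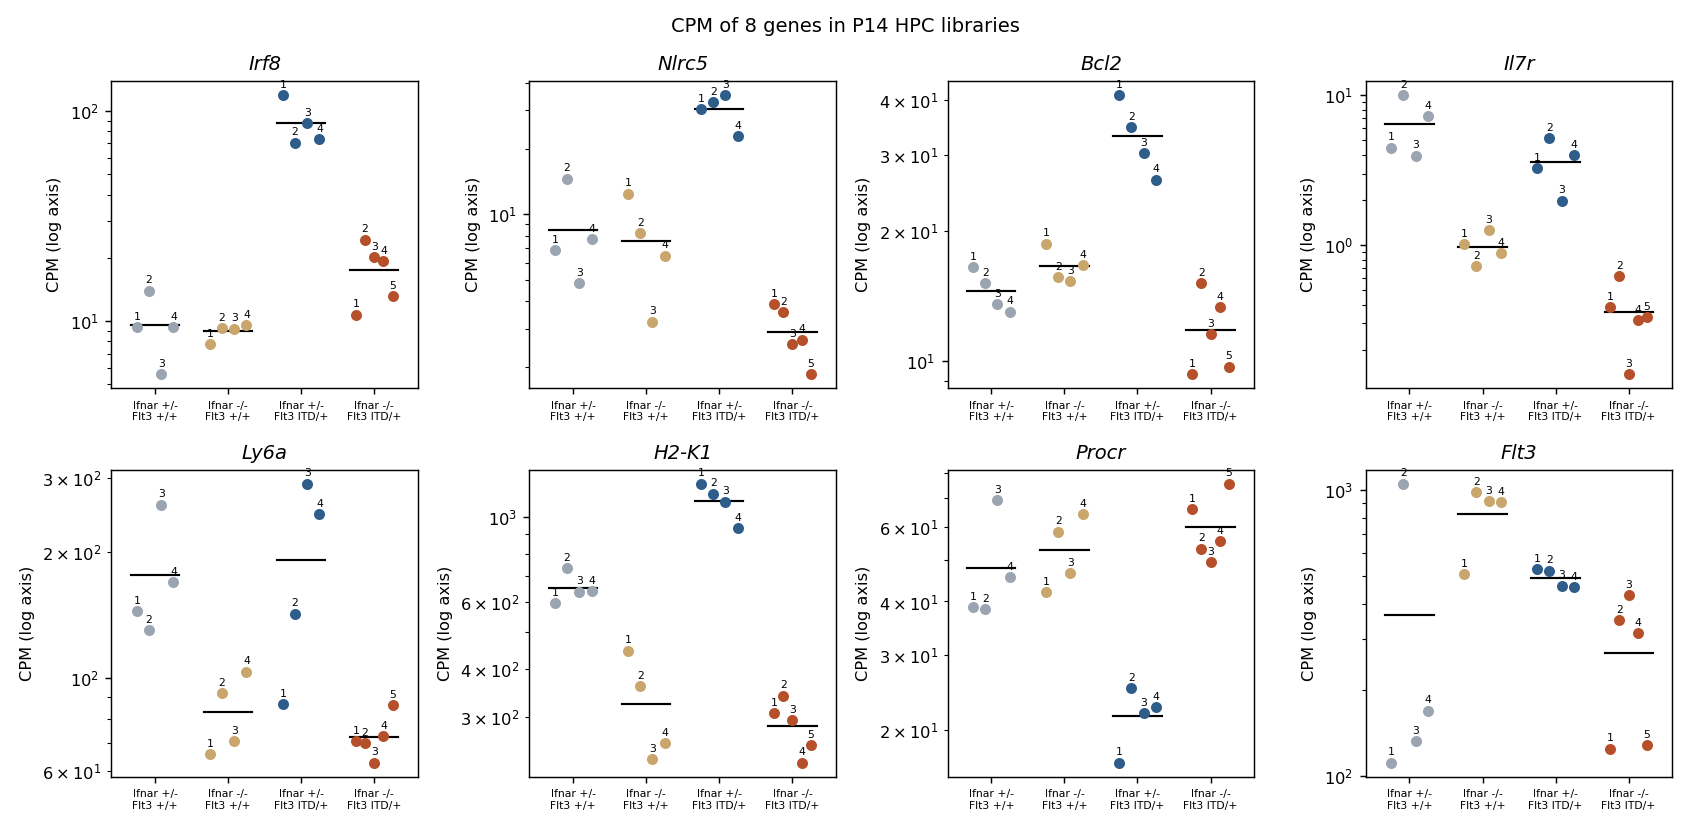
CPM of 8 genes on log axes (vertical) in the 17 P14 HPC libraries by labelled genotype (horizontal). Each numbered point is 1 library and bars are group means. Irf8, Nlrc5, Bcl2, Il7r, Ly6a and H2-K1 are lower and Procr is higher in each Ifnar -/- Flt3 ITD/+ library than in any Ifnar +/- Flt3 ITD/+ library, and the values of the Flt3 +/+ libraries stand to their left.

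Among called genes of at least 3 mean log2 CPM without overlap, the largest increases outside the lists were modest beside the losses. Chil5, a chitinase-like gene, rose from 1.74 to 2.55 CPM in the heterozygotes to 6.41, 7.30, 6.50, 7.09 and 14.2 CPM (log2 fold change 1.96 ± 0.31, adjusted p = 0.000889 with edgeR). Apbb1 rose from 3.30 to 5.41 CPM to 11.8 to 20.9 CPM (log2 fold change 1.86 ± 0.22, adjusted p = 5.37e-05 with edgeR). Schip1 (1.64), Smoc1 (1.68) and Cyp7b1 (1.62), the oxysterol hydroxylase gene, were also higher, and these 5 kept their calls without knockout libraries 4 and 5. Tspan7 and Fcgrt did not (adjusted p = 0.121 and 0.266 with edgeR). Tspan7 stood at 130 and 195 CPM in those 2 libraries and at 40.0 to 44.0 CPM in the other knockouts, above 7.18 to 28.8 CPM in the heterozygotes. Car2, a carbonic anhydrase of erythroid cells, was higher at 1.37 ± 0.24, 1 of 2 called among 15 erythroid genes. Of all genes tested 2.14% were called higher.

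Growth and signalling programmes were called in few genes or none. Of 12 STAT5 targets and feedback genes, a readout of FLT3 ITD signalling, 0 were called, and their median log2 fold change was -0.06. Socs2 was at 0.33, Cish at 0.26 and Pim1 at -0.18. MAPK feedback (9 tested), NF-kB feedback (12), immediate early genes (11), G2/M (20), S phase (18), oxidative phosphorylation (21) and cholesterol synthesis (20) likewise had 0 calls with edgeR, with medians between -0.32 and 0.27. Of the 123 genes in these 8 lists 20 had an unadjusted p under 0.05, among 3284 of all genes tested, and DESeq2 called 0 of them. Glycolysis had 1 call of 16, Hk2 (-1.04), which was lost without knockout libraries 4 and 5 (adjusted p = 0.122 with edgeR). A threshold that was missed does not show equal levels. The summed S phase level was 8.13 to 8.30 log2 CPM in the heterozygotes and 7.72 to 8.05 in the knockouts, without overlap. Of the 18 S phase genes 16 were negative. In 5 of them each knockout lay under each heterozygote, which held for 7% of all genes tested.

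Genes beside Ifnar1 on chromosome 16 were examined because a knockout can carry neighbouring sequence of another strain. Of 30 tested, Il10rb was lower (-0.55) and Pigp (0.98) and Dnajc28 (0.53) were higher, beside 4.07% of all genes tested called in either direction. These 3 lost their calls without knockout libraries 4 and 5 (adjusted p = 0.201, 0.206 and 0.2 with edgeR).

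In HPC with wild-type Flt3 the same knockout lowered 35 of 119 interferon-list members and raised 0, among 833 genes called (4.77%), 621 of them lower (3.56%) and 212 higher (1.21%). The median log2 fold change of the members was -0.56 there and -1.44 with Flt3 ITD. The 2 comparisons share no library. Both called 32 members lower, 50 were called with Flt3 ITD and not with wild-type Flt3, and 3 the other way round, and 103 of the 119 had the more negative value with Flt3 ITD. That call counts differ is not a test of the difference. Of 19 MHC class I genes 10 were also lower with wild-type Flt3, with a median of -0.77, beside -0.96 with Flt3 ITD. Of 13 lymphoid genes 4 were lower in each comparison, with a median of -0.488 with wild-type Flt3 and -0.595 with Flt3 ITD.

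**Figure D5:**
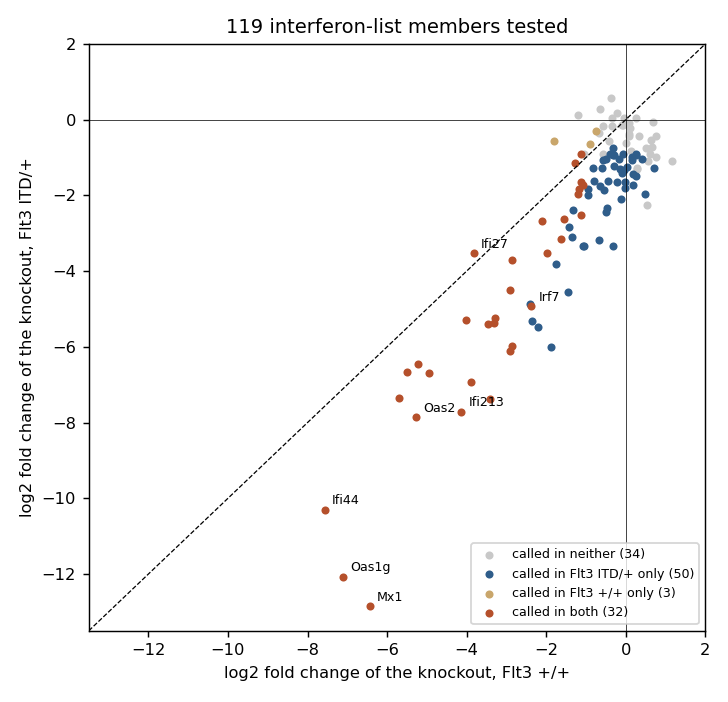
Log2 fold change of the knockout in Flt3 ITD/+ (vertical axis) against that in Flt3 +/+ (horizontal axis) for the 119 interferon-list members tested, 1 point per gene, with the line of equal values dashed. Of these, 103 lie under the line. Colours give the comparisons in which a gene was called.

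The difference itself was tested by the interaction term, which called 2 genes, both more negative with Flt3 ITD (0.0115% of 17464). With wild-type Flt3, Bcl2 was at 16.47, 15.1, 13.5 and 13 CPM in heterozygotes and at 15.3 to 18.7 CPM in knockouts, all under the heterozygous Flt3 ITD libraries (difference -1.67 ± 0.24, adjusted p = 0.0293 with edgeR). Nlrc5 was at 6.84, 14.6, 4.85 and 7.68 CPM and at 12.4, 8.19, 3.23 and 6.47 CPM in the same groups (difference -3.22 ± 0.50, adjusted p = 0.0327 with edgeR). Irf8 came next: with wild-type Flt3 it was at 5.6 to 14 CPM in heterozygotes and 7.77 to 9.53 CPM in knockouts, and its difference of -2.22 ± 0.37 had an adjusted p of 0.053 with edgeR. Of the 119 interferon-list members 0 passed, 75 had an unadjusted p under 0.05 with a more negative value in Flt3 ITD and 4 with a less negative one, among 5181 genes in all. DESeq2 called 2452 genes in this test, 52 members on the lower and 3 on the higher side.

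The wild-type and interaction counts moved with single libraries of both wild-type groups. Leaving out 1 wild-type knockout library gave 41 to 68 calls in the wild-type comparison. In wild-type heterozygous libraries 1, 3 and 4 levels fell with gene length (Spearman rho from -0.52 to -0.41 across genes). Wild-type heterozygous library 2 (0.46) and the wild-type knockouts (0.28 to 0.41) went the other way. In the Flt3 ITD groups rho ran from -0.36 to 0.35. With that trend as a covariate the interaction called 0 genes, the wild-type comparison 25 and the Flt3 ITD comparison 632, with 82 interferon-list members lower. Without wild-type heterozygous library 2 the interaction called 5582 genes.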

How the data were processed

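The authors deposited a table of unnormalized counts per gene. STAR (given as version 3.0.4), Subread and featureCounts 1.4.5 are named in the submitters' processing notes. Build, annotation and strand setting: not given in the sources used here. RNA and cDNA were made with Qiagen and Clontech kits, per the labels' protocols. The 17 P14 HPC libraries (58.4 M to 92.1 M counts) were grouped by title and fitted together with edgeR 4.0.16 in R 4.3.3 (TMM factors, default filter on low counts, robust quasi-likelihood F-test, no covariates). All tests are two-sided with Benjamini-Hochberg adjustment over 17464 genes, and genes were called under 0.05. SE is the log2 fold change over the root of F. List levels are mean log2 CPM with a prior count of 2.

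Named genes were the receptor genes and Flt3, the called genes with largest change (up to 10 per direction, mean log2 CPM of at least 3, groups not overlapping), up to 4 members of smallest adjusted p per list, and genes called in the interaction. Other list members and Mpo and Siglech are named with values only. The members and lists were chosen with earlier results of these data known. On simulated counts (17102 genes) 100 genes with many reads were changed 2-fold and 100 were changed 4-fold. The test recovered 63% of the 2-fold and 94% of the 4-fold changes. Changes in genes with few reads, outlying libraries and a gene length trend were not simulated. No pair of libraries agreed within counting noise. DESeq2 1.42.0, other scalings, filters, covariates and left-out libraries were tried. Results for some members of the lists are not reported here.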

Additional observations from a re-analysis of the deposited data

Results flagged for a closer look

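A library that lay far from the others of its group was found for 14 of 266 sets of values examined (Dixon's test at the 95% level, log2(CPM + 0.1) for genes), and chance gives about 1 in 20. Heterozygous Flt3 ITD/+ library 1 was lowest in Oas2 (14.7 CPM) and highest in H2-Ab1 (82.2 CPM), in H2-Eb1 (44.9 CPM) and in the summed level of the MHC class II list (5.94 log2 CPM). Heterozygous library 3 was highest in Tap1 (178 CPM). Among knockouts, library 5 was highest in Oas2 (0.76 CPM), Chil5 (14.2 CPM) and Irf7 (16.7 CPM), and library 1 was highest in Mx2 (0.32 CPM) and Dhx58 (27.5 CPM). Knockout library 4 was highest in Ifi207 (0.28 CPM) and lowest in the sex-linked list (-2.68 log2 CPM), being the 1 knockout without Y-linked reads. Knockout library 2 was lowest in H2-Ab1 (11.2 CPM) and Fgd5 (7.01 CPM).

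The knockout effect differed between Flt3 genotypes, by the interaction term, in Nlrc5 (log2 difference -3.22) and Bcl2 (-1.67). Over 27 other settings both differences stayed negative. Bcl2 passed in 14 and Nlrc5 in 13 of the 27, with adjusted p from 3.4e-07 to 0.792 in both.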

How the results depend on the processing

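The interferon count varied least: 61 to 92 members were lower over 10 other settings, and 73 to 83 when single libraries were left out. The 710 calls in Flt3 ITD became 1378 with DESeq2 (789 higher, 589 lower), 1398 with the 2 groups alone (659 and 739) and 193 without knockout libraries 4 and 5 (51 and 142, a choice made after seeing the data, as were the gene length covariate and leaving out wild-type heterozygous libraries 1 and 3). With library totals as the scale 62.9% of 709 calls were higher, against 52.5%. Leaving out single libraries gave 327 to 695 calls, 112 to 371 higher (213 without heterozygous library 4) and 202 to 324 lower (215 and 202 without heterozygous libraries 1 and 3, 216 and 210 without knockout libraries 4 and 5).

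The 833 calls in wild-type Flt3 became 3104 with DESeq2, 114 with library totals, 1513 with at least 1 CPM in 4 libraries, 44 with the 2 groups alone, 79 with the Y-linked level as covariate, 38 without heterozygous libraries 1 and 3 and 25 with the gene length covariate. Without single libraries they ran from 41 (knockout library 4) to 6233 (heterozygous library 2). Each of the other 6 libraries also moved them: to 60, 54 and 205 without heterozygous libraries 1, 3 and 4, and to 61, 47 and 68 without knockout libraries 1, 2 and 3. The 2 interaction calls became 2452 with DESeq2, 4 without a filter, 5 with the stricter filter, and 0 with library totals, the Y-linked covariate, the gene length covariate, without knockout libraries 4 and 5, and without wild-type heterozygous libraries 1 and 3. Leaving out single libraries gave 0 to 5582, with 5582 without wild-type heterozygous library 2, 14 without Flt3 ITD heterozygous library 1 and at most 5 in every other case. The cause of these shifts was not tested.

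Replicate numbers are shared between groups. Deviations of same-numbered heterozygous and knockout libraries from their group means had correlations of 0.135, -0.07, 0.01 and -0.03. Those of differently numbered libraries ran from -0.175 to 0.165. These values cannot decide whether the libraries were paired, which the labels do not say, and the main fit used no pairing. With the replicate block the Flt3 ITD comparison had 459 calls (226 higher), the wild-type comparison 1504 and the interaction 1, and 76 interferon members were lower.

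Of 90 named genes called, 56 stayed called under each of 19 settings in which they were tested, 34 were lost under at least 1 and 0 changed direction. The promoter share of 25.4% became 10% with the stricter motif GAAACNGAAA and 15.7% without interferon-list members. The stricter motif is rarer and stood in 0.931% of genes tested and in 0.355% of genes called higher. Mx1 and Oas1g in the knockouts, Siglech and the interferon genes lay at or near 0 reads, and the effect of depth was not tested.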

Other observations

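Of 9 genes of the Lin28b axis, not described above, 2 were called in the knockout of Ifnar with Flt3 ITD, beside 4.07% of all genes tested. Cdkn2c, an inhibitor of CDK4 and CDK6, was higher (0.28, 0.50, 0.38 and 0.23 CPM against 0.77, 0.59, 1.15, 1.93 and 1.4 CPM) and Igf2bp3, a fetal RNA-binding protein, was lower (38.9, 28.3, 35.4 and 36.0 CPM against 17.3, 20.9, 24.3, 25 and 23.1 CPM). Lin28b, which governs the fetal programme, was at a log2 fold change of -0.02 and did not pass, and Hmga2 was at -0.10. Cdkn1c, a cell cycle inhibitor of quiescent HSC, was higher at 1.60 ± 0.36, with 14.1 and 8.94 CPM in knockout libraries 5 and 4 and 3.17 to 4.78 CPM in the other knockouts. Without those 2 libraries Cdkn1c (adjusted p = 0.205), Cdkn2c (0.184) and Igf2bp3 (0.0788, edgeR) were not called.

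Of 7 neutrophil markers 1 was higher and 2 were lower, beside 2.14% higher and 1.93% lower of all genes tested. Ltf, which encodes lactoferrin, was higher in the knockouts (2.89 to 7.78 CPM against 12.1 to 20.7 CPM), while Mmp8 (0.16 to 1.66 CPM against 0 to 0.03 CPM) and Cxcr2 (2.76 to 11.8 CPM against 2.02 to 3.18 CPM) were lower. Without knockout libraries 4 and 5 Ltf was still called (adjusted p = 0.0379), and Mmp8 (0.0932) and Cxcr2 (0.18, edgeR) were not. S100a8 and S100a9 did not pass.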
